A study of Mus musculus with 16 samples.

Results

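The response of the E9.5 mouse transcriptome to loss of KAT6A was compared between embryos without and with extra copies of Kat6b, gene by gene, in all 16 embryos of the series. The embryos form a 2 by 2 design with 4 embryos in each genotype. Kat6a+/+Kat6b+/+ embryos were wild type. Kat6a-/-Kat6b+/+ embryos were homozygous for a Kat6a null allele that lacks internal exons. Kat6a+/+Tg(Kat6b) embryos carried the Tg(Kat6b) transgene, in which several copies of a bacterial artificial chromosome bearing the whole Kat6b gene with its own flanking sequence descend from 1 germline founder. Kat6a-/-Tg(Kat6b) embryos carried both changes. The transgene is therefore 1 insertion, driven by Kat6b sequence and not by a tissue-specific promoter, and every sample was RNA of 1 whole embryo at E9.5. Each genotype held 2 female and 2 male embryos. The quantity tested was the interaction, which is the log2 difference Kat6a-/-Tg(Kat6b) minus Kat6a+/+Tg(Kat6b), less the log2 difference Kat6a-/-Kat6b+/+ minus Kat6a+/+Kat6b+/+. An interaction of 0 means that the 2 genetic changes multiply each other's effect on the level of a gene. Of 26411 genes in the files, 15679 had enough counts to be tested.

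KAT6A and KAT6B are closely related histone acetyltransferases of the MYST family. Each works in a complex with the scaffold protein BRPF1 and acetylates histone H3, a mark found over active genes. KAT6A is known for holding up Hox, Tbx1 and Dlx genes, which give the embryonic axis, the pharyngeal arches and the face their regional identity, and for the formation of blood stem cells. If both paralogues act on one gene, loss of the first and excess of the second pull its level in opposite directions, and the interaction measures whether the pull of each depends on the state of the other.

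Total counts lay between 14407277 and 45665680 per embryo, and no pair of embryos of 1 genotype was close enough to be 1 library deposited again. Kat6b, the check of the transgene, read 42.6 to 51.0 CPM (counts scaled to a common library total) in the 8 embryos without Tg(Kat6b) and 155 to 227 CPM in the 8 embryos with it. Kat6a counts over the whole gene do not check the Kat6a genotype, because the null allele still gives reads. Litter was not crossed with genotype. Litters 801 and 803 held Kat6a+/+Kat6b+/+ and Kat6a-/-Kat6b+/+ embryos, litters 2597 and 2598 held Kat6a+/+Kat6b+/+ and Kat6a+/+Tg(Kat6b) embryos, and the 4 Kat6a-/-Tg(Kat6b) embryos came from litters 483 and 498, which held no other genotype. An interaction carried by the Kat6a-/-Tg(Kat6b) embryos thus cannot be told apart from a property of those 2 litters. The same holds for the Kat6a effect with the transgene and for the transgene effect in Kat6a-/- embryos, which compare no littermates. Both averaged effects and the additive class built on them contain these comparisons. In Kat6a+/+Tg(Kat6b) replicate 1, long genes read low (median log2 difference -0.266 from the other 3 embryos of its genotype over 583 genes, against -0.0984 to 0.120 in the other 15 libraries). The 2 female Kat6a-/-Tg(Kat6b) embryos, replicates 2 and 4, stood at -0.409 and -0.332 on the second of 2 surrogate variables, near the wild-type replicate 2 at -0.479, while the 2 males of that genotype stood at 0.0167 and 0.0344. That wild-type embryo is male. Splits within the genotype with both changes are given below by sex to name the embryos, and an effect of sex was not tested. In Kat6a-/-Kat6b+/+ embryos the females came from litter 801 and the males from litter 803. Wild-type males came from litters 801 and 803 and wild-type females from litters 2597 and 2598. In these 2 genotypes sex and litter thus cannot be told apart.

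The interaction passed the test in 24 of the 15679 genes, which is 0.153% (edgeR quasi-likelihood test, FDR under 0.05). It lay above 0 in 16 of them (0.102%) and below 0 in 8 (0.051%). The averaged effect of Kat6a loss, the mean of its effect without and with the transgene, passed in 755 genes (4.82%), with 425 up (2.71%) and 330 down (2.1%). The averaged effect of the transgene passed in 826 genes (5.27%), with 393 up (2.51%) and 433 down (2.76%). At an unadjusted p under 0.05 the interaction held 2284 genes, and its median standard error was 0.113 log2, against 0.0576 for the averaged Kat6a effect and 0.0545 for the averaged transgene effect. DESeq2 on the same covariates called 138 interactions, among them 23 of the 24, and limma-voom called 25, again with 23 of the 24. The averaged Kat6a count fell to 398 without Kat6a-/-Kat6b+/+ replicate 3, and the averaged transgene count fell to 388, 367 and 399 with no surrogate variable, 1 surrogate variable or sex as the covariate, to 440 and 490 without Kat6a-/-Tg(Kat6b) replicates 4 and 2, to 470 without wild-type replicate 1 and to 530 without Kat6a-/-Kat6b+/+ replicate 1.

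A gene was placed in an additive class where an averaged effect passed, the interaction did not, and the 95% interval of the interaction lay between -0.5 and 0.5 log2. That class held 942 genes (6.01%). Another 480 genes (3.06%) had an averaged effect but an interval that reached past the limit, so these data left them undecided, and in 14233 (90.8%) neither averaged effect was called. In the additive class 279 genes rose and 210 fell with averaged Kat6a loss, and 282 rose and 250 fell with the transgene. Both averaged effects passed in 79 additive genes, and in 76 of these the 2 effects had opposite directions. The interval of the interaction held 0 in 705 of the 942 genes, lay wholly above 0 in 165 and wholly below 0 in 72, so additive means here a departure under the limit and not a departure of 0. The class held 560 and 596 genes without Kat6a-/-Tg(Kat6b) replicates 4 and 2, 592 without Kat6a-/-Kat6b+/+ replicate 3 and 611 with no surrogate variable. Undecided genes were weaker in signal, with a median of 2.78 log2 CPM and a median standard error of the interaction of 0.206, against 4.53 log2 CPM and 0.113 over all tested genes.

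**Figure D1:**
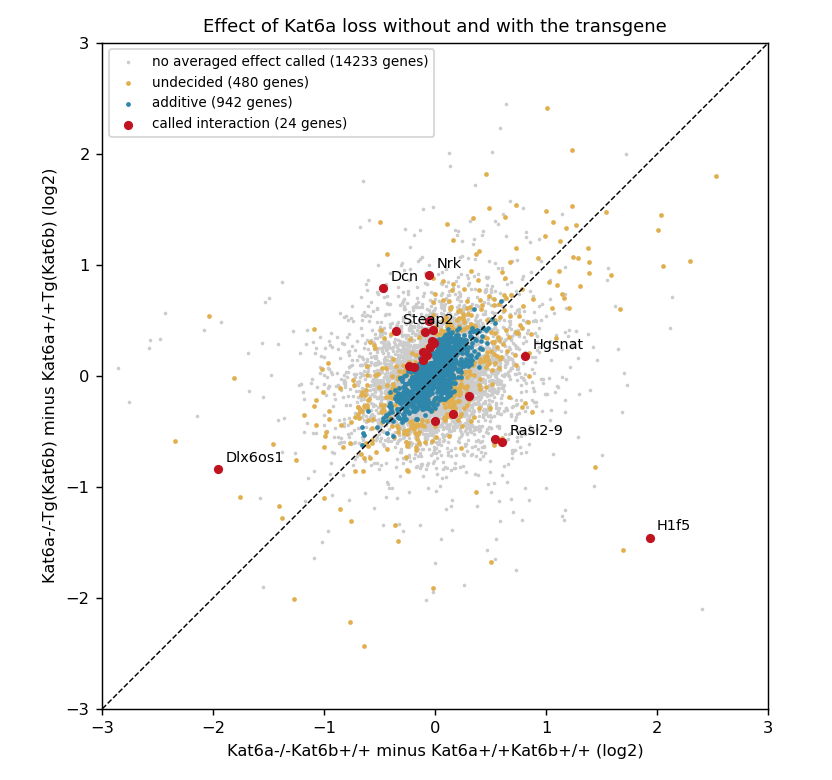
Each point is a gene, placed by its fitted log2 difference between Kat6a-/- and Kat6a+/+ embryos without the transgene (x axis) and with it (y axis), and the dashed line marks an interaction of 0. The 24 genes with a called interaction (red) lie off the line, the 942 additive genes (blue) lie along it, and 8 genes, Wipi1 among them, fall outside the axes, which end at 3 log2 either way.

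The sequences before the transcription starts of 4 genes are shown because the genes stand for the 2 outcomes. Rbpj and Wipi1 had a called interaction, though the levels of Wipi1 followed the litters. Tbx1 and Hoxb1 fell with Kat6a loss and rose with the transgene with no called interaction. The 250 bases before the first listed start are taken from RefSeq (GRCm38.p6), written 5′ to 3′ on the strand of the gene, with each CG dinucleotide in capitals. Each matched GRCm39 at 1 place on its chromosome, chr5:53747438-53747687 on the plus strand for Rbpj, chr11:109502216-109502465 on the minus strand for Wipi1, chr16:18407650-18407899 on the minus strand for Tbx1 and chr11:96256334-96256583 on the plus strand for Hoxb1. Rbpj and Tbx1 had 2 listed starts each. The windows of Rbpj, Wipi1 and Tbx1 lie within the annotated genes (53623494 to 53814704, 109464156 to 109502793 and 18399729 to 18409421), so other starts may be in use.
Rbpj: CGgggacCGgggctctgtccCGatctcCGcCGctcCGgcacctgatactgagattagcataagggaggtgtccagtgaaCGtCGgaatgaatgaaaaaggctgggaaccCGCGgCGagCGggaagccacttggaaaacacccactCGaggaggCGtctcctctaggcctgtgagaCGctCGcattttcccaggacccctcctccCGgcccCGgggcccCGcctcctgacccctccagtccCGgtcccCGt
Wipi1: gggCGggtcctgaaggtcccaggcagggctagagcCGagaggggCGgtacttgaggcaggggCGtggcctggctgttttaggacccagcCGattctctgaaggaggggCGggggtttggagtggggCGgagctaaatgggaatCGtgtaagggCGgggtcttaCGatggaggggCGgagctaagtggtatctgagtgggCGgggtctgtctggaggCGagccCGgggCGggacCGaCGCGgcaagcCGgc
Tbx1: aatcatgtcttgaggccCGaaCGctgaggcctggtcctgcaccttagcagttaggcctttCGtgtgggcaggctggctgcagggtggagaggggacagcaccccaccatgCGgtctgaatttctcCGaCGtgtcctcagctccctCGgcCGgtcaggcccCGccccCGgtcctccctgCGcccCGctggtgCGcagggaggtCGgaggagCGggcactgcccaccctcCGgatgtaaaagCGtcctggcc
Hoxb1: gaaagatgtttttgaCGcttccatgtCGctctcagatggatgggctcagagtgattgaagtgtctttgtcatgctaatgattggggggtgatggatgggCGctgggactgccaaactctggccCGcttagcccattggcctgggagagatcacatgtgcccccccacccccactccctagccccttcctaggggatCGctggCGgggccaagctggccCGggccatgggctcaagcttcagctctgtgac
The windows held 21 CG in Rbpj, 19 in Wipi1, 17 in Tbx1 and 7 in Hoxb1. Of the 32851 promoters listed, 16.3% had at least as many as Rbpj, 19.7% as Wipi1, 23.5% as Tbx1 and 46.3% as Hoxb1. The listed promoters had a median of 6 CG, while the tested genes had quartiles of 8 and 22. Among tested genes Rbpj, Wipi1 and Tbx1 thus lay between the quartiles and Hoxb1 below the lower one. The median was 12.5 CG over 18 genes with a called interaction and a listed promoter, 17 in additive genes that fell with Kat6a loss, 19 in additive genes that rose with the transgene, and 15 over all tested genes. At most 4 CG were found in 22.2% of the 18 genes with a called interaction, in 21.7% of undecided genes and in 12.4% of all tested genes. In additive genes the share was 3.16% in those that fell and 13.1% in those that rose with Kat6a loss. It was 8.02% in those that rose and 10.4% in those that fell with the transgene. These shares are descriptions with no test.

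The 24 genes were chosen by their interaction in these same embryos, which favours a genotype that stands apart. The counts below therefore describe the 24 and are no test against the background. In 11 of the 24 genes the 4 Kat6a-/-Tg(Kat6b) embryos lay wholly above or wholly below the 12 others (background 1.1% of all tested genes). Kat6a-/-Kat6b+/+ embryos stood apart in 7 (background 2.02%), Kat6a+/+Tg(Kat6b) embryos in 2 (1.15%) and wild-type embryos in 1 (0.121%), 3 genes counting under 2 genotypes, and no genotype stood apart in 6. The effect of Kat6a loss had opposite signs without and with the transgene in 20 of the 24, which the choice also favours. Over all tested genes 54.2% had the same sign in both. In 18 the interaction was smaller than 1 log2. On untransformed CPM, where 0 means that the changes add, the sign was the same in all 24, and the departure was over 2 standard errors in 22, Dlx6os1 and Col1a2 being the exceptions.

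Rbpj, on chromosome 5 (53623494 to 53814704, GRCm39), encodes the DNA-binding protein through which Notch receptors act on their target genes. It read 58.2, 58.8, 60.5 and 56.8 CPM in wild-type embryos and 57.0, 53.0, 60.4 and 60.9 CPM in Kat6a-/-Kat6b+/+ embryos. It read 61.7, 59.2, 64.4 and 61.2 CPM in Kat6a+/+Tg(Kat6b) embryos and 83.2, 74.0, 84.9 and 78.8 CPM in Kat6a-/-Tg(Kat6b) embryos. The first 3 genotypes overlapped, and all 4 embryos with both changes were higher than every other embryo. The interaction was 0.43 ± 0.06 (SE, edgeR FDR 0.00209), or a factor of 1.35, and the mean of 80.2 CPM compares with 60.9 CPM if the single effects multiply. Within litters 801 and 803 Kat6a loss changed Rbpj by -0.02 log2, and within litters 2597 and 2598 the transgene changed it by 0.06 log2, neither past the test.

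Steap2, a metalloreductase of iron and copper uptake on chromosome 5, was lowest without KAT6A and highest with both changes. It read 14.1 to 16.1 CPM in wild type, 11.0 to 12.3 in Kat6a-/-Kat6b+/+, 12.8 to 14.8 in Kat6a+/+Tg(Kat6b) and 16.9 to 19.4 in Kat6a-/-Tg(Kat6b) embryos. Neither Kat6a-/- genotype overlapped any other. Kat6a loss lowered Steap2 without the transgene (-0.36 ± 0.07, edgeR FDR 0.0106) and raised it with the transgene (0.40 ± 0.08, edgeR FDR 0.00744), an interaction of 0.76 ± 0.10 (edgeR FDR 0.00209). Within litters 801 and 803 the Kat6a effect was -0.29 and did not pass (edgeR FDR 0.478). Steap2 and Rbpj were called under each of 9 other models and in each of 16 fits that left out 1 embryo.

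A further 5 genes were highest in all 4 Kat6a-/-Tg(Kat6b) embryos. Arhgap29, a GTPase-activating protein, read 130 to 144 CPM with both changes and 103 to 118 CPM elsewhere (interaction 0.31 ± 0.06, edgeR FDR 0.0227). Adamts9, a secreted protease that cleaves the matrix proteoglycan versican, read 52.0 to 58.8 CPM with both changes and 39.2 to 51.9 CPM elsewhere (interaction 0.49 ± 0.09, edgeR FDR 0.0181). In Adamts9 the lowest of the 4 embryos and the highest of the 12 others were almost equal, while in Arhgap29 the gap was wider. Pls3, an actin-bundling protein, read 121 to 132 CPM against 105 to 117 CPM elsewhere, and Atxn2, an RNA-binding protein, read 125 to 128 CPM against 101 to 118 CPM. Rbm25, a splicing factor, read 331 to 348 CPM with both changes, 280 to 293 CPM in Kat6a-/-Kat6b+/+ and 300 to 326 CPM in Kat6a+/+ embryos with or without the transgene. The interactions of these 3 were 0.26 ± 0.05, 0.32 ± 0.06 and 0.25 ± 0.04, so the changes were small, but the embryos with both changes did not overlap the others.

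Genes that were lowest in Kat6a-/-Tg(Kat6b) embryos included COX3, a subunit of cytochrome c oxidase encoded by the mitochondrial genome. It read 891 to 973 CPM in wild type, 896 to 982 in Kat6a-/-Kat6b+/+, 886 to 938 in Kat6a+/+Tg(Kat6b) and 652, 659, 772 and 648 CPM in Kat6a-/-Tg(Kat6b) embryos. The first 3 genotypes overlapped widely and the fourth lay below all of them, with replicate 3 nearest to the rest. The interaction was -0.40 ± 0.06 (edgeR FDR 0.0022). All 13 protein-coding genes of the mitochondrial genome, a set taken up after their values were seen, had an interaction below 0 (median -0.287, against -0.000584 over all tested genes), 7 at an unadjusted p under 0.05, and COX3 alone passed the test. Of all tested genes 50.2% had an interaction below 0 and 14.6% one at an unadjusted p under 0.05. ND1, a subunit of complex I, read 1858 to 2061, 1653 to 2078, 1874 to 2115 and 1340 to 1735 CPM in the same order of genotypes (interaction -0.36 ± 0.09, edgeR FDR 0.145), and replicate 3 was again the highest of the 4 embryos with both changes. Mitochondrial reads have near copies in the nuclear genome, so these values are uncertain as to their source.

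Gtf2a1, a subunit of the general transcription factor TFIIA, read 54.4 to 67.9, 65.1 to 71.5, 55.4 to 72.4 and 49.3 to 52.2 CPM in the same order of genotypes. The embryos with both changes lay below all others by a narrow gap (interaction -0.50 ± 0.08, edgeR FDR 0.00757), and the call was lost without the second surrogate variable (highest FDR 0.167 over 9 models, at -0.43 log2). Rasl2-9, which encodes a relative of the nuclear transport GTPase RAN, read 4.02 to 5.30 CPM in wild type, 6.62 to 8.74 in Kat6a-/-Kat6b+/+, 3.24 to 4.76 in Kat6a+/+Tg(Kat6b) and 2.70 to 2.96 CPM in Kat6a-/-Tg(Kat6b) embryos. Kat6a loss raised it without the transgene (0.60 ± 0.13, edgeR FDR 0.0208) and lowered it with the transgene (-0.60 ± 0.16, edgeR FDR 0.0413), an interaction of -1.20 ± 0.21 (edgeR FDR 0.0117). Within litters 801 and 803 the Kat6a effect was 0.55 and did not pass (edgeR FDR 0.399). Reads of Rasl2-9 may be shared with near-identical copies of Ran, which makes its level uncertain.

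Wipi1, which encodes a phosphoinositide-binding protein of the autophagosome, had a fitted interaction of -6.46 ± 0.44 (edgeR FDR 6.35e-06), and its levels followed the litters. Wild-type replicates 1 and 2, of litters 801 and 803, read 8.62 and 8.28 CPM, close to the 6.70 to 8.48 CPM of their Kat6a-/-Kat6b+/+ littermates. Wild-type replicates 3 and 4, of litters 2597 and 2598, read 18.8 and 18.9 CPM, close to the 16.8 to 18.4 CPM of their Kat6a+/+Tg(Kat6b) littermates. The Kat6a-/-Tg(Kat6b) embryos, of litters 483 and 498, held 0, 3, 3 and 5 counts, at most 0.185 CPM, where a count of 0 allows up to 0.0954 CPM in that library, counting error alone considered. Within litters 801 and 803 Kat6a loss changed Wipi1 by -0.11 ± 0.11 log2, and within litters 2597 and 2598 the transgene changed it by -0.09 ± 0.11 log2, and neither passed (edgeR FDR 0.889 and 0.999). Their 11 counts together give 0.0951 CPM (95% exact Poisson interval 0.0475 to 0.17, counting error alone), so the size of the fitted interaction rests on very few counts and is no bound. No littermate of another genotype was there to read beside them.

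**Figure D2:**
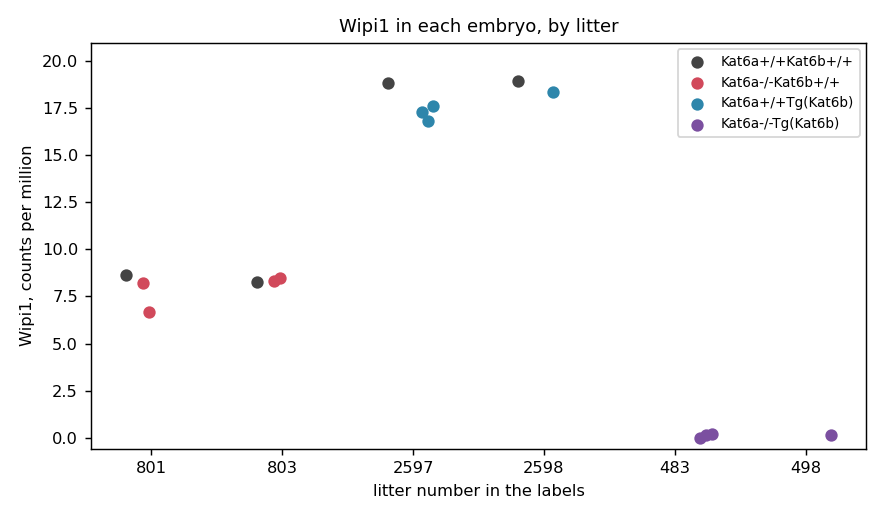
Wipi1 in CPM (y axis) is plotted for each of the 16 embryos by the litter number of its label (x axis), with colour for genotype. Embryos of 1 litter lie together whatever their genotype, at 6.70 to 8.62 CPM in litters 801 and 803, at 16.8 to 18.9 CPM in litters 2597 and 2598, and at most 0.185 CPM in litters 483 and 498.

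In Igf2 the Kat6a-/-Kat6b+/+ embryos stood apart and those with both changes lay near wild type. Igf2, the imprinted growth factor of the embryo and placenta, read 1893, 1929, 1977 and 1946 CPM in wild type and 1632, 1655, 1623 and 1647 CPM in Kat6a-/-Kat6b+/+ embryos. It read 1865, 2006, 1750 and 1826 CPM in Kat6a+/+Tg(Kat6b) and 1963, 1974, 2007 and 1968 CPM in Kat6a-/-Tg(Kat6b) embryos. The 4 embryos without KAT6A and without the transgene were the lowest of the 16, and the other 3 genotypes overlapped. Kat6a loss lowered Igf2 without the transgene (-0.24 ± 0.03, edgeR FDR 0.000158), the effect with the transgene was 0.09 ± 0.03 (edgeR FDR 0.157), and the interaction was 0.33 ± 0.05 (edgeR FDR 0.00209). Within litters 801 and 803 the Kat6a effect was -0.22 and did not pass (edgeR FDR 0.102).

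H1f5, a linker histone gene, was higher in the Kat6a-/-Kat6b+/+ embryos, at 2.32, 2.16, 1.06 and 1.21 CPM, than in any other embryo. It read 0.313 to 0.663 CPM in wild type, 0.384 to 0.950 in Kat6a+/+Tg(Kat6b) and 0.191 to 0.439 CPM in Kat6a-/-Tg(Kat6b) embryos. The interaction was -3.39 ± 0.51 (edgeR FDR 0.00306), and the Kat6a effect within litters 801 and 803 was 1.74 and did not pass (edgeR FDR 0.244). Linker histone genes have near-identical copies and H1f5 read few counts, so its level is uncertain. Dlx6os1, a long noncoding RNA that lies in the Dlx5 and Dlx6 locus on the opposite strand to Dlx6, read 3.98 to 6.32 CPM in wild type, 0.996 to 1.43 in Kat6a-/-Kat6b+/+, 5.16 to 6.35 in Kat6a+/+Tg(Kat6b) and 2.27 to 3.21 CPM in Kat6a-/-Tg(Kat6b) embryos. The 2 Kat6a-/- genotypes overlapped neither each other nor the Kat6a+/+ embryos. Kat6a loss lowered Dlx6os1 without the transgene (-1.96 ± 0.16, edgeR FDR 4.28e-07) and with it (-0.84 ± 0.16, edgeR FDR 0.00674), and within litters 801 and 803 it did so by -1.73 log2 (edgeR FDR 0.00234). Its interaction of 1.11 ± 0.22 had the weakest call of the 24 (edgeR FDR 0.0395), passed in 2 of 9 other models and in 5 of 16 fits without 1 embryo, and on untransformed CPM was 0.864 ± 0.648. The strand setting of the counting is not given, so counts of Dlx6os1 may hold reads of Dlx6.

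**Figure D3:**
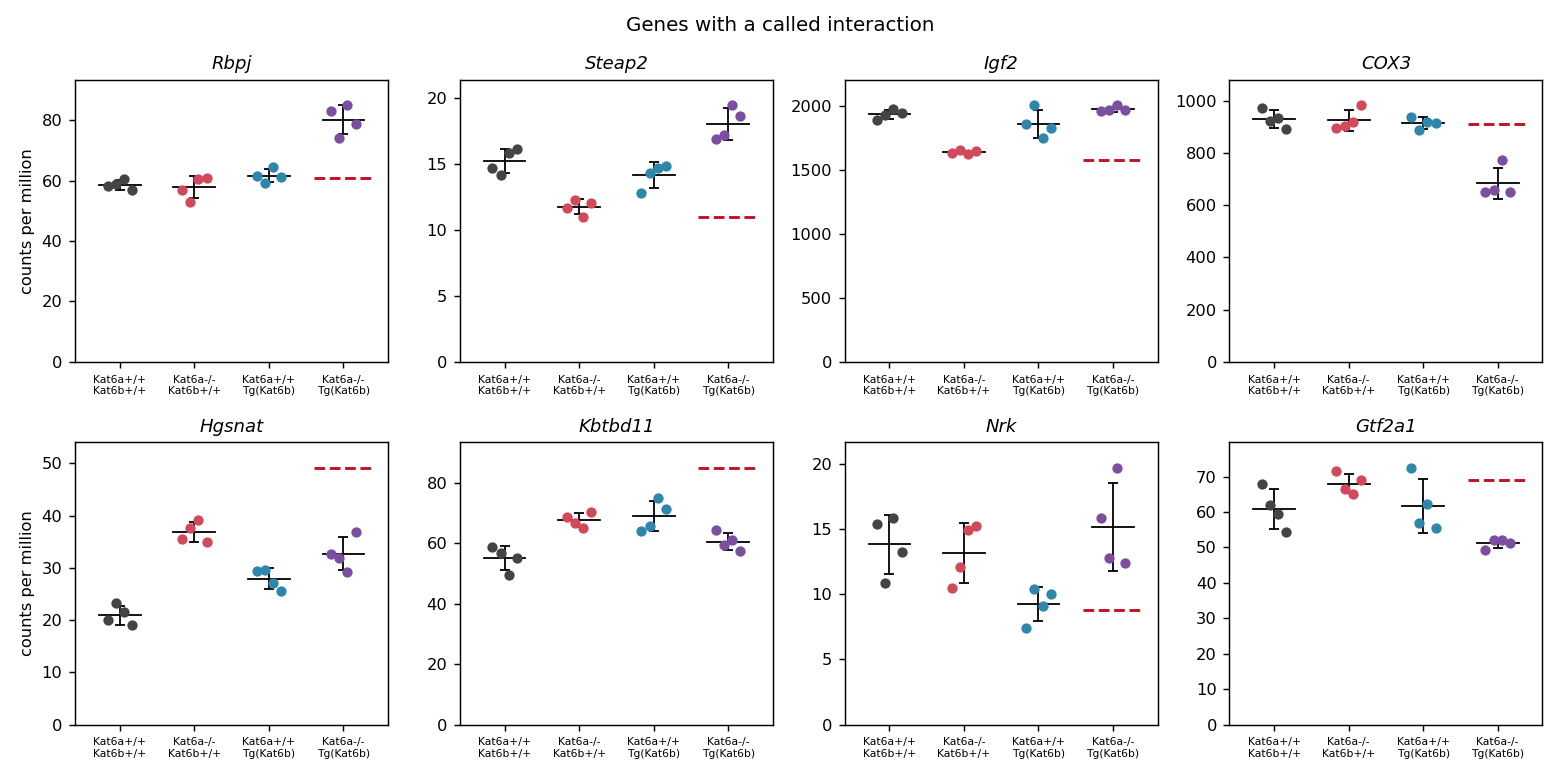
For 8 genes with a called interaction the CPM of each embryo (points), the mean of 4 embryos (bar) and the SD (whiskers) are shown by genotype, on axes that start at 0. The dashed red line is the Kat6a-/-Tg(Kat6b) level if the single effects multiply, for example 60.9 CPM in Rbpj, where the observed mean was 80.2 CPM.

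The Kat6a+/+Tg(Kat6b) embryos stood apart in 2 genes. Nrk, an X-linked protein kinase, read 10.9 to 15.8 CPM in wild type, 10.5 to 15.2 in Kat6a-/-Kat6b+/+, 7.44 to 10.4 in Kat6a+/+Tg(Kat6b) and 12.4 to 19.7 CPM in Kat6a-/-Tg(Kat6b) embryos. The transgene lowered Nrk in Kat6a+/+ embryos (-0.64 ± 0.11, edgeR FDR 0.0153) and gave 0.32 ± 0.11 without KAT6A (edgeR FDR 0.0667), an interaction of 0.96 ± 0.15 (edgeR FDR 0.00757) that was lost without the second surrogate variable (highest FDR 0.26 over 9 models). Plxna4, a semaphorin receptor of growing axons, read 19.0 to 22.4, 18.6 to 21.1, 14.7 to 17.2 and 22.3 to 25.5 CPM (interaction 0.55 ± 0.10, edgeR FDR 0.0227). Its lowest embryo was Kat6a+/+Tg(Kat6b) replicate 1, the library in which long genes read low, and without it the interaction was 0.45 with an edgeR FDR of 0.0519.

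Hgsnat and Kbtbd11 lie near Kat6a on chromosome 8. The Kat6a gene runs from 23349545 to 23433275, Hgsnat lies 3.06 Mb away and Kbtbd11 8.32 Mb away. Genes within 20 Mb of Kat6a made up 2 of the 23 called genes with a position (8.7%) and 1.13% of all tested genes. Hgsnat, the lysosomal enzyme that acetylates heparan sulfate for its breakdown, read 19.2 to 23.3 CPM in wild type, 35.0 to 39.2 in Kat6a-/-Kat6b+/+, 25.5 to 29.7 in Kat6a+/+Tg(Kat6b) and 29.3 to 36.9 CPM in Kat6a-/-Tg(Kat6b) embryos. All 4 wild-type embryos lay below the 12 others. Either change alone raised it, Kat6a loss by 0.81 ± 0.07 (edgeR FDR 7.2e-07) and the transgene by 0.43 ± 0.07 (edgeR FDR 0.0153), and the mean of 32.7 CPM with both lay below the 49.1 CPM expected if the effects multiply (interaction -0.63 ± 0.10, edgeR FDR 0.00757). The Kat6a effect passed within litters 801 and 803 (0.77 log2, edgeR FDR 0.00142), while the transgene effect of 0.42 log2 within litters 2597 and 2598 did not (edgeR FDR 0.999). Kbtbd11, which encodes a kelch repeat protein, read 49.5 to 58.8, 65.0 to 70.5, 64.1 to 74.9 and 57.6 to 64.4 CPM. Each single change raised it, by 0.30 ± 0.05 for Kat6a loss (edgeR FDR 0.00434) and 0.33 ± 0.06 for the transgene (edgeR FDR 0.0153), and the embryos with both changes overlapped wild type and Kat6a+/+Tg(Kat6b) embryos (interaction -0.49 ± 0.08, edgeR FDR 0.00757). Within litters neither effect of Kbtbd11 passed, at 0.23 log2 for Kat6a loss and 0.43 log2 for the transgene (edgeR FDR 0.368 and 0.373). Whether the sequence linked to the null allele has a part in these 2 levels was not tested.

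The other called genes had groups that overlapped. Nrp1, a receptor for semaphorins and VEGF, read 99.9 and 95.6 CPM in the male and 83.0 and 82.3 CPM in the female Kat6a-/-Tg(Kat6b) embryos, against 72.8 to 86.2 CPM in the 12 others (interaction 0.32 ± 0.06, edgeR FDR 0.0372). Col1a2, a chain of type I collagen, read 339 and 361 CPM in those males and 251 and 252 CPM in those females, against 242 to 294 CPM elsewhere (interaction 0.34 ± 0.06, edgeR FDR 0.0207). Dcn, the matrix proteoglycan decorin, read 6.20 and 7.34 CPM in the males and 3.16 and 4.04 CPM in the females, against 1.83 to 5.15 CPM elsewhere (interaction 1.25 ± 0.23, edgeR FDR 0.0181). In these 3 genes the males with both changes lay above every other embryo and the females within their range. All 3 calls were lost in the models without the second surrogate variable, with FDR up to 0.243, 0.576 and 0.264. Gxylt1, a xylosyltransferase that acts on Notch, read 83.0 to 103 CPM over the 12 other embryos and 99.3 to 103 CPM with both changes (interaction 0.31 ± 0.06, edgeR FDR 0.0227, up to 0.194 over the models). Rem2, a small GTPase that binds calcium channels, read 5.40 to 10.0 CPM in wild type, 9.15 to 11.4 in Kat6a-/-Kat6b+/+, 6.82 to 10.3 in Kat6a+/+Tg(Kat6b) and 4.81 to 6.22 CPM in Kat6a-/-Tg(Kat6b) embryos (interaction -1.10 ± 0.21, edgeR FDR 0.0297).

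Without the 2 female Kat6a-/-Tg(Kat6b) embryos, a choice made after seeing the data, edgeR called 19 genes, 12 of them among the 24, and all 24 kept the sign of their interaction. The fit reused embryos that had chosen the 24, so the kept signs are no separate support. Leaving out also Kat6a+/+Tg(Kat6b) replicate 1 gave 30 called genes, again with 12 of the 24. With 1 embryo left out at a time the count of called genes ran from 16, without Kat6a-/-Kat6b+/+ replicate 1, to 45 without Kat6a+/+Tg(Kat6b) replicate 3 and 81 without Kat6a+/+Tg(Kat6b) replicate 2, the last holding all 24. Wipi1, Steap2, Igf2, Rbpj, COX3, H1f5, Hgsnat, Kbtbd11, Nrk and Gtf2a1 were called in all 16 fits. By edgeR FDR, Rbm25 was lost without Kat6a-/-Kat6b+/+ replicate 1 (FDR 0.0605). Pls3 was lost without Kat6a+/+Kat6b+/+ replicate 3 (FDR 0.0753) or Kat6a-/-Tg(Kat6b) replicate 4 (FDR 0.0506). Atxn2 was lost without Kat6a-/-Kat6b+/+ replicate 1 (FDR 0.0778) or Kat6a-/-Tg(Kat6b) replicate 3 (FDR 0.0502). Dcn was lost without Kat6a+/+Kat6b+/+ replicate 4 (FDR 0.0679) or Kat6a-/-Tg(Kat6b) replicate 3 (FDR 0.0559). Rasl2-9 was lost without Kat6a+/+Kat6b+/+ replicate 3 (FDR 0.0647) or Kat6a-/-Kat6b+/+ replicate 1 (FDR 0.051). Adamts9 was lost without Kat6a-/-Kat6b+/+ replicate 1 (FDR 0.066), Kat6a-/-Kat6b+/+ replicate 2 (FDR 0.0594) or Kat6a-/-Tg(Kat6b) replicate 3 (FDR 0.0722). Plxna4 was called in 9 of 16, with its highest FDR of 0.0826 without Kat6a-/-Kat6b+/+ replicate 4. Rem2 was called in 9 of 16, with its highest FDR of 0.119 without Kat6a+/+Kat6b+/+ replicate 3. Gxylt1 was called in 9 of 16, with its highest FDR of 0.142 without Kat6a+/+Kat6b+/+ replicate 3. Arhgap29 was called in 7 of 16, with its highest FDR of 0.0971 without Kat6a-/-Tg(Kat6b) replicate 4. Col1a2 was called in 6 of 16, with its highest FDR of 0.132 without Kat6a+/+Tg(Kat6b) replicate 1. Dlx6os1 was called in 5 of 16, with its highest FDR of 0.108 without Kat6a-/-Kat6b+/+ replicate 1. Nrp1 was called in 4 of 16, with its highest FDR of 0.119 without Kat6a+/+Kat6b+/+ replicate 3.

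Additive genes that fell with Kat6a loss included regulators of hindbrain and pharyngeal identity. Hoxb3, a homeobox gene of the hindbrain and neck, read 70.9 to 79.6 CPM in wild type, 54.9 to 57.5 in Kat6a-/-Kat6b+/+, 81.1 to 83.9 in Kat6a+/+Tg(Kat6b) and 62.2 to 66.8 CPM in Kat6a-/-Tg(Kat6b) embryos. The 4 genotypes did not overlap. Kat6a loss lowered Hoxb3 by -0.39 ± 0.04 without the transgene (edgeR FDR 3.27e-06) and by -0.33 ± 0.04 with it (edgeR FDR 0.000232). The transgene changed it by 0.16 ± 0.04 in Kat6a+/+ (edgeR FDR 0.11) and by 0.22 ± 0.04 in Kat6a-/- embryos (edgeR FDR 0.00265). The interaction was 0.06 ± 0.06, with a 95% interval from -0.0534 to 0.181, and the mean of 64.4 CPM with both changes compares with 63.0 CPM if the effects multiply.

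Tbx1, the T-box gene of pharyngeal arch and outflow tract development, read 19.4 to 20.9, 11.8 to 15.05, 21.6 to 25.1 and 15.7 to 18.9 CPM in the same order, again with no overlap between genotypes. Its Kat6a effects were -0.65 ± 0.08 and -0.52 ± 0.08 without and with the transgene (edgeR FDR 4.29e-05 and 0.00197), and its interaction was 0.13 (95% interval -0.0953 to 0.362). Pou3f3, a POU factor of the nervous system and kidney, read 72.5 to 92.6, 53.7 to 66.1, 77.0 to 97.5 and 52.3 to 68.8 CPM, so the 2 Kat6a-/- genotypes overlapped each other and lay below the Kat6a+/+ embryos. Its averaged transgene effect of 0.07 ± 0.03 did not pass (edgeR FDR 0.215). Skida1, on chromosome 2, fell with Kat6a loss by -0.60 ± 0.05 without and -0.32 ± 0.05 with the transgene (edgeR FDR 4.2e-07 and 0.00276). Its interval ran from 0.136 to 0.429, inside the limit but above 0. Hoxb1, a hindbrain homeobox gene that sustains its own expression, read 17.6 to 25.1, 10.9 to 15.2, 21.03 to 26.4 and 14.5 to 24.5 CPM. In Kat6a-/-Tg(Kat6b) embryos the females read 24.1 and 24.5 CPM and the males 18.7 and 14.5 CPM. Hoxb1 was also higher in females of Kat6a-/-Kat6b+/+ embryos (15.2 and 13.8 against 10.9 and 12.1 CPM). In wild type it was lower in females (17.6 and 17.8 against 20.4 and 25.1 CPM). Sex coincided with litter in both of these genotypes. The interaction of Hoxb1 was 0.20 (95% interval -0.0204 to 0.415).

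Additive genes that rose with Kat6a loss included Ccdc80, which encodes an extracellular matrix protein. Ccdc80 read 20.5 to 25.7, 28.1 to 30.8, 20.5 to 22.3 and 31.1 to 35.8 CPM in the order given for Hoxb3. Both Kat6a-/- genotypes lay above both Kat6a+/+ genotypes, by 0.35 ± 0.06 without and 0.60 ± 0.07 with the transgene (edgeR FDR 0.00462 and 5.48e-05). Its interval of 0.0624 to 0.443 also lay above 0, so Ccdc80 is additive only within the limit. Cgnl1, a junction protein, rose by 0.22 ± 0.05 and 0.33 ± 0.05, Limd2 by 0.21 ± 0.04 and 0.25 ± 0.05, and Ank3, which anchors ion channels in neurons, by 0.18 ± 0.04 and 0.26 ± 0.05. Wild-type Limd2 read 130 and 126 CPM in litters 801 and 803, and 107 and 108 CPM in litters 2597 and 2598. In Kat6a-/-Kat6b+/+ embryos, of litters 801 and 803, Limd2 read 132 to 142 CPM. Within litters 801 and 803 the Kat6a effect was 0.09 in Limd2, 0.19 in Cgnl1 and 0.20 in Ank3. None of them passed there (edgeR FDR 0.737, 0.527 and 0.4085). Col3a1, a fibrillar collagen, gave 0.09 ± 0.04 without the transgene (edgeR FDR 0.204) and rose by 0.32 ± 0.04 with it (edgeR FDR 0.000232), and its males with both changes read 702 CPM each against 546 and 550 CPM in the females. The interval of its interaction ran from 0.111 to 0.334, above 0, and its averaged Kat6a call of 0.21 was lost in the 3 models without the second surrogate variable (0.15 to 0.16 log2, edgeR FDR 0.0621 to 0.115).

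Among genes additive for the transgene, Kat6b rose by 2.02 ± 0.07 in Kat6a+/+ and 2.05 ± 0.07 in Kat6a-/- embryos (edgeR FDR 1.01e-09 and 8.68e-10). Its interaction was 0.03 ± 0.10, so the excess of Kat6b RNA did not differ detectably with KAT6A status (95% interval -0.196 to 0.253). Nrip1, a nuclear receptor corepressor, fell by -0.32 ± 0.05 and -0.39 ± 0.05 (edgeR FDR 0.0109 and 0.000167). It read 102 to 114, 116 to 125, 77.4 to 92.8 and 91.0 to 96.1 CPM, and the 8 transgenic embryos lay below the 8 others. Ccnd2, a D-type cyclin, fell by -0.20 ± 0.04 and -0.27 ± 0.04 (edgeR FDR 0.0268 and 0.000235), with 751 to 819 CPM in embryos without and 604 to 703 CPM in embryos with the transgene. Nefm, a neurofilament of differentiating neurons, fell by -0.32 ± 0.06 and -0.48 ± 0.06 (edgeR FDR 0.0298 and 9.58e-05). The females with both changes read 22.6 and 23.2 CPM and the males 45.9 and 49.3 CPM. Nefm was also lower in females of Kat6a-/-Kat6b+/+ embryos (45.1 and 49.4 against 69.5 and 60.6 CPM). In wild type it was higher in females (57.5 and 58.3 against 50.8 and 32.8 CPM), and in both of these genotypes sex coincided with litter. The averaged call was lost without the second surrogate variable (FDR up to 0.211) at effects of -0.47 to -0.49, against -0.40 with it. Tti2, a subunit of the TTT complex that matures PI3K-like kinases, rose by 0.35 ± 0.07 and 0.41 ± 0.07 (edgeR FDR 0.0298 and 0.00106), and lies 8.26 Mb from Kat6a. Cdx2, a caudal homeobox gene of the tail bud, rose by 0.51 ± 0.10 and 0.66 ± 0.10 (edgeR FDR 0.0423 and 0.000829). Cdx2 read 5.35 to 14.1 CPM in wild type and 8.63 to 18.2 CPM in Kat6a-/-Tg(Kat6b) embryos, with the females of the latter at 18.2 and 18.0 CPM, so unadjusted levels overlapped. Its place in the additive class rests on the second surrogate variable, since its interaction was 0.15 with it and 0.71 to 0.74, past the limit, in the 3 models without it (edgeR FDR 0.583 to 0.625).

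**Figure D4:**
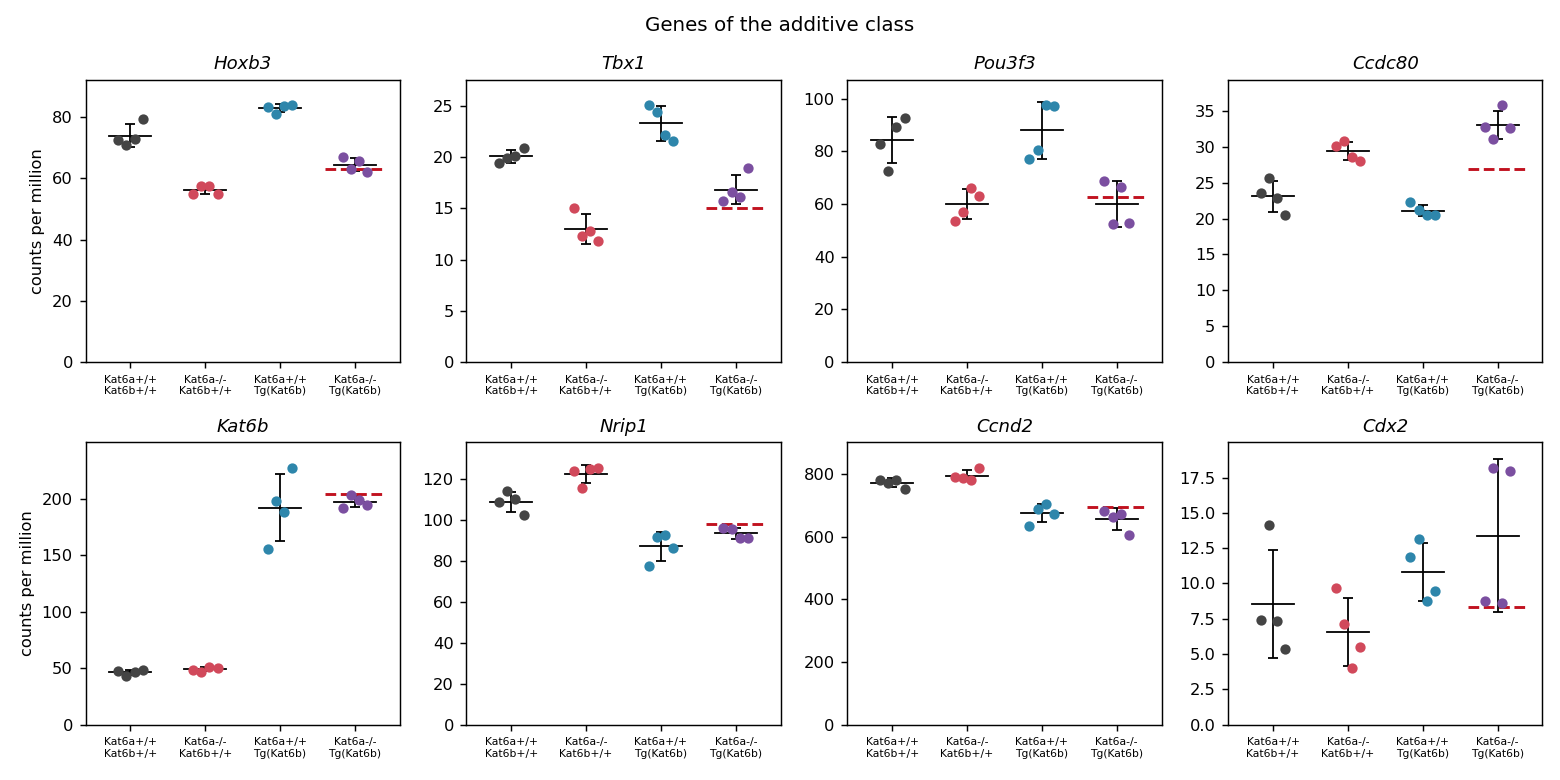
For 8 genes of the additive class the CPM of each embryo (points), the mean (bar) and the SD (whiskers, n = 4) are shown by genotype on axes that start at 0, with the dashed red line at the level expected if the single effects multiply. Hoxb3 (64.4 CPM against 63.0 CPM expected) and Kat6b (197 CPM against 204 CPM expected) lie close to the line, and in Cdx2 the 2 females of Kat6a-/-Tg(Kat6b) lie well above it and the 2 males just above it.

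The 2 effects of Kat6a loss share no embryo, so genes called in one could be read in the other 8 embryos. They do share litters, since wild-type replicates 3 and 4 and all Kat6a+/+Tg(Kat6b) embryos came from litters 2597 and 2598. A property of those litters enters both effects, so a kept direction is no separate support. Without the transgene 295 genes passed (1.88%), 148 up (0.944%) and 147 down (0.938%), and 240 of them (81.4%) had the same direction in the embryos with the transgene, against 54.2% of all tested genes. Their median size was 0.37 log2 without the transgene and 0.139 log2, in the same direction, with it. In those embryos 50 were called again in the same direction and 3 in the opposite one. With the transgene 535 genes passed (3.41%), 357 up (2.28%) and 178 down (1.14%), and 408 (76.3%) kept their direction without it, at a median of 0.0663 log2 after 0.298. A median falls on a second reading of genes picked for size, so no difference between the genotypes is read from it. The 295 fell to 95 with no surrogate variable, to 91 with sex as the covariate and to 18 with litter as a fixed term in 12 embryos, and to between 137 and 178 without any 1 of 7 of its 8 embryos, wild-type replicate 1 being the other. Of 20 named genes with a called Kat6a effect without the transgene, all 20 kept its sign within litters 801 and 803, and 6 passed there (Hgsnat, Dlx6os1, Hoxb3, Tbx1, Skida1 and Hoxb1). Of 9 with a called transgene effect in Kat6a+/+ embryos, all 9 kept its sign within litters 2597 and 2598, and Kat6b alone passed. Both readings reuse embryos that had chosen the genes, so the kept signs are no separate support. Each of these litters held 1 wild type, and in litter 801 that was a male beside female Kat6a-/-Kat6b+/+ embryos. The 535 fell to 165 without Kat6a+/+Tg(Kat6b) replicate 1, to between 197 and 241 without any 1 of the 4 Kat6a-/-Tg(Kat6b) embryos, to 268, 301 and 352 without Kat6a-/-Kat6b+/+ replicates 1, 3 and 2, and rose to 876 without wild-type replicate 4. The transgene effect passed in 22 genes in Kat6a+/+ embryos (0.14%), 9 up (0.0574%) and 13 down (0.0829%), of which 12 were also called, in the same direction, in Kat6a-/- embryos. There it passed in 1119 genes (7.14%), 532 up (3.39%) and 587 down (3.74%), of which 735 (65.7%) had the same direction in Kat6a+/+ embryos against 53.7% of all tested genes. The comparison in Kat6a-/- embryos holds no littermates, while the comparison in Kat6a+/+ embryos holds some. Both have embryos of litters 801 and 803 on the side without the transgene, so a kept direction is no separate support here either. The 1119 calls, like the 535, therefore cannot be told apart from litter, and their number is not read against the 22.

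None of 310 tested genes of the lists of patterning, cell-type and metabolic genes had a called interaction by edgeR, against 0.153% of all tested genes. At an unadjusted p under 0.05 the lists held 52 (16.8%, against 14.6% of all tested genes), 28 above and 24 below 0. DESeq2 called 8 of the list genes and 138 of all 15679 tested genes. With limma-voom none of the list genes was called and 25 of all tested genes were. In these lists 13 genes rose and 30 fell with averaged Kat6a loss, 41 rose and 28 fell with the transgene, 55 were additive and 38 undecided. Over all tested genes 2.71% rose and 2.1% fell with Kat6a loss, and 2.51% rose and 2.76% fell with the transgene. The additive class held 6.01% of all tested genes and the undecided class 3.06%.

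Of 38 tested Hox genes, 8 fell and 1, Hoxa7, rose with averaged Kat6a loss (2.1% and 2.71% of all tested genes). With the transgene 20 rose and 0 fell (2.51% and 2.76% of all tested genes). By class 17 were additive, 4 undecided and 17 without a called averaged effect. The interaction lay above 0 in 33 of the 38, against 49.8% of all tested genes, with a median of 0.149 against -0.000584. At an unadjusted p under 0.05 it lay above 0 in 6 and below 0 in 1 (18.4%, against 14.6% of all tested genes). Their median Kat6a effect was -0.229 without and -0.0528 with the transgene, and their median transgene effect was 0.179 in Kat6a+/+ and 0.306 in Kat6a-/- embryos. Their summed level was 822 to 867 CPM in wild type, 689 to 757 in Kat6a-/-Kat6b+/+, 937 to 968 in Kat6a+/+Tg(Kat6b) and 866 to 907 CPM in Kat6a-/-Tg(Kat6b) embryos. The sums of wild-type embryos and of embryos with both changes overlapped at their edges, while Kat6a-/-Kat6b+/+ embryos lay below and Kat6a+/+Tg(Kat6b) embryos above all others.

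The undecided Hox genes were Hoxa6, Hoxa10, Hoxd4 and Hoxd10, which pattern the trunk, limb and neck. Hoxa10 read 13.9 to 16.5, 11.2 to 12.8, 18.6 to 20.98 and 18.9 to 22.2 CPM. Kat6a loss lowered it without the transgene (-0.35 ± 0.08, edgeR FDR 0.0166) and gave 0.09 ± 0.08 with it (edgeR FDR 0.566), and the interaction of 0.45 ± 0.11 did not pass (edgeR FDR 0.107, interval 0.222 to 0.669). It passed in 2 of 9 other models. Hoxa6 had means of 14.9 ± 1.00, 9.70 ± 1.23, 17.0 ± 2.07 and 15.03 ± 1.29 CPM (SD, n = 4) and an interaction of 0.53 ± 0.13 (edgeR FDR 0.115). Hoxd4 had means of 57.5 ± 7.75, 37.2 ± 2.61, 71.0 ± 4.93 and 55.6 ± 1.26 CPM, fell with Kat6a loss both without and with the transgene (-0.62 and -0.29, edgeR FDR 4.13e-06 and 0.0213), and had an interaction of 0.33 ± 0.09 (edgeR FDR 0.131). In the additive class Hoxb9 had means of 110 ± 4.97, 87.3 ± 5.96, 124 ± 7.71 and 108 ± 3.72 CPM and an interaction of 0.12 ± 0.07 (edgeR FDR 0.433). Hoxd3 fell by -0.44 and -0.36 (edgeR FDR 0.0032 and 0.0195) with an interaction of 0.08 ± 0.11.

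**Figure D5:**
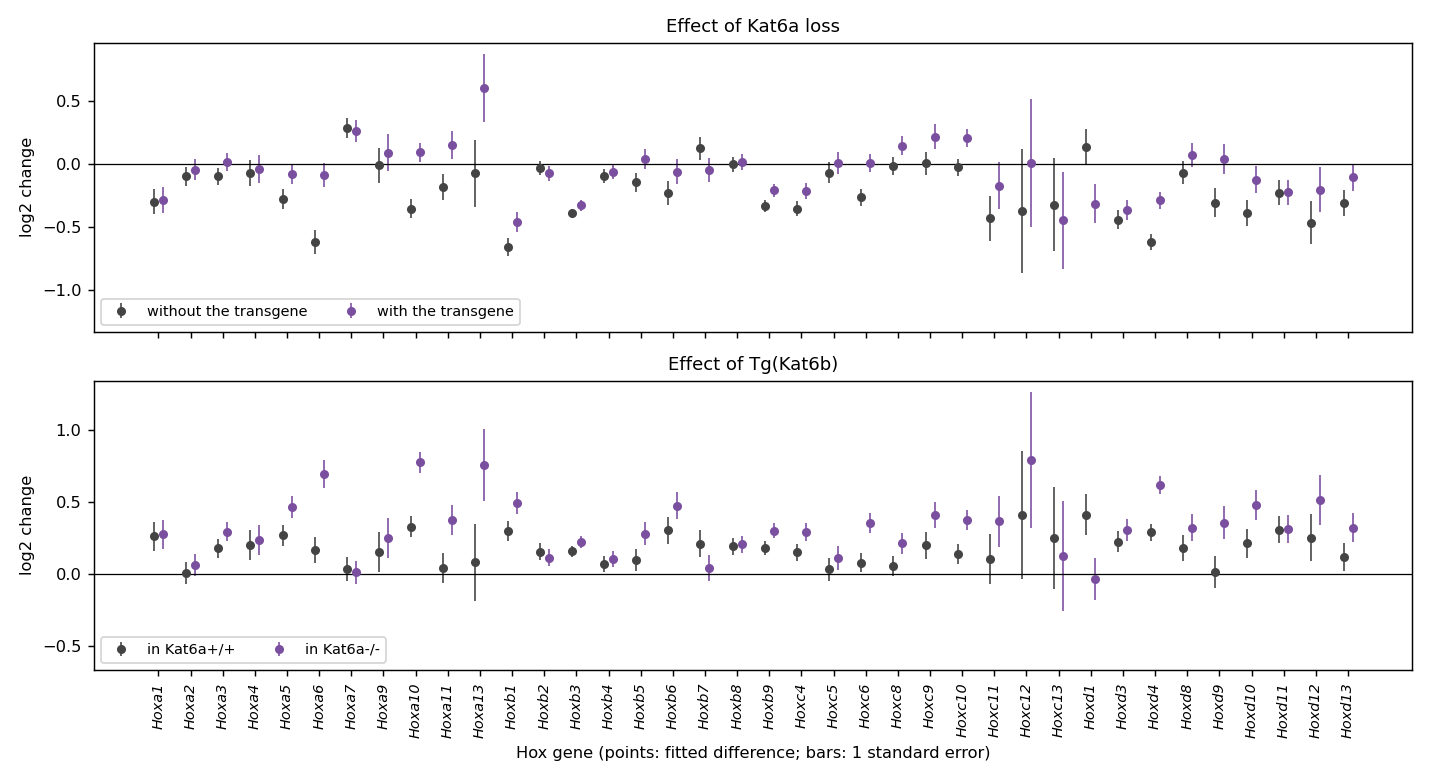
For the 38 tested Hox genes the upper panel gives the fitted effect of Kat6a loss in log2 without (grey) and with (purple) the transgene, and the lower panel the effect of Tg(Kat6b) in Kat6a+/+ (grey) and Kat6a-/- (purple) embryos, with bars of 1 standard error. In 33 of the 38 genes the purple point lies above the grey one (49.8% of all tested genes have an interaction above 0), and in none was this difference called.

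All 6 Dlx genes, homeobox genes of the jaws and forebrain, had an interaction above 0, with a median of 0.267 and 3 at an unadjusted p under 0.05, against 14.6% of all tested genes, of which 49.8% lay above 0. By averaged effects 2 fell with Kat6a loss (2.1% of all tested genes) and 3 rose with the transgene (2.51% of all tested genes), 3 were undecided and none additive. Dlx1 read 6.01, 5.91, 8.35 and 8.44 CPM in wild type, 2.90 to 4.79 in Kat6a-/-Kat6b+/+, 8.10 to 10.3 in Kat6a+/+Tg(Kat6b) and 6.33, 3.73, 7.21 and 4.35 CPM in Kat6a-/-Tg(Kat6b) embryos, the males of the last being the higher. Its interaction was 0.48 ± 0.19 (edgeR FDR 0.263). Dlx2 read 20.02 to 24.3, 16.3 to 20.9, 25.1 to 27.5 and 21.4 to 28.6 CPM (interaction 0.31 ± 0.12, edgeR FDR 0.239). Neither gene can be placed by these data, and Dlx6os1 of the same family of loci is described above with its call.

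Of 12 tested T-box genes 2 fell with averaged Kat6a loss (2.1% of all tested genes), 3 rose with the transgene (2.51% of all tested genes), and Tbx1 was the 1 additive member. Tbx15, a T-box gene of skin and skeleton, fell without the transgene (-0.96 ± 0.17, edgeR FDR 0.00494) and gave -0.39 ± 0.18 with it (edgeR FDR 0.256), with 4.17 and 4.62 CPM in the males and 0.889 and 1.19 CPM in the females with both changes. Its interaction of 0.57 ± 0.25 did not pass (edgeR FDR 0.302) and was 0.08 to 0.12 in the 3 models without the second surrogate variable. Tbx5, the forelimb and heart T-box gene, read 16.1 to 19.6 CPM in wild type, 11.2 to 12.8 in Kat6a-/-Kat6b+/+ and 18.0 to 20.5 CPM with both changes, and in Kat6a+/+Tg(Kat6b) embryos 19.2, 20.6, 10.2 and 20.4 CPM. With its low replicate 3 left in, the interaction was 0.64 ± 0.22 (edgeR FDR 0.224), and without that embryo it was 0.51 and passed (edgeR FDR 0.0375). Tbx2 and Tbx3 had no called averaged effect and interactions of 0.21 ± 0.11 and 0.14 ± 0.10 (edgeR FDR 0.375 and 0.554). Kit, the stem cell factor receptor, read 33.2 to 38.2, 27.4 to 31.9, 34.2 to 39.8 and 36.0 to 43.1 CPM and was undecided (interaction 0.34 ± 0.09, edgeR FDR 0.108). Barx1, a homeobox gene of the jaw and stomach, had means of 24.9 ± 3.43, 12.1 ± 1.30, 24.4 ± 4.86 and 20.9 ± 4.26 CPM and an interaction of 0.87 ± 0.25 (edgeR FDR 0.171), and Wnt5a, a signal for outgrowth of the axis and limbs, was additive at 0.30 ± 0.08 (edgeR FDR 0.115).

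Markers of other cell types and metabolic lists gave these values. In whole embryos fewer cells of a type and less RNA per cell cannot be told apart. Of 13 tested macrophage genes 8 rose with averaged Kat6a loss (2.71% of all tested genes) and 2 fell with the transgene (2.76% of all tested genes). All 8 were undecided, and none of the 13 had an interaction at an unadjusted p under 0.05 (14.6% of all tested genes). Their summed level was 10.2 to 17.9 CPM in wild type, 17.8 to 32.9 in Kat6a-/-Kat6b+/+, 11.1 to 13.1 in Kat6a+/+Tg(Kat6b) and 12.1 to 19.7 CPM in Kat6a-/-Tg(Kat6b) embryos. Mrc1, the mannose receptor, rose without and with the transgene (1.38 and 1.15 log2, edgeR FDR 0.00123 and 0.0201).

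Of 20 genes of cholesterol synthesis 12 fell with the transgene (2.76% of all tested genes), at a median averaged effect of -0.355 over the list. In this list 19 had an interaction below 0, and 1, Hsd17b7, had one at an unadjusted p under 0.05 (5%, against 14.6% of all tested genes, of which 50.2% lay below 0). All 11 tested genes of liver bud and visceral endoderm had an interaction above 0 (median 1.86), 3 at an unadjusted p under 0.05 (27.3%, against 14.6% of all tested genes, of which 49.8% lay above 0), and none was called. Afp, the fetal serum protein, read 37.1, 30.6, 8.13 and 44.8 CPM in wild type, 2.32 to 8.60 in Kat6a-/-Kat6b+/+, 38.8, 37.3, 0.536 and 17.3 in Kat6a+/+Tg(Kat6b) and 26.3 to 39.5 CPM in Kat6a-/-Tg(Kat6b) embryos. Kat6a+/+Tg(Kat6b) replicate 3, the embryo low in Tbx5, was also the lowest for Afp. Both adult beta-globin genes had interactions at an unadjusted p under 0.05 (14.6% of all tested genes), Hbb-bt at -1.33 ± 0.40 (edgeR FDR 0.171), with a summed level of 10.1 to 11.5 CPM in embryos with both changes and 5.35 to 18.3 CPM in wild type.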

How the data were processed

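RNA of 16 whole E9.5 embryos, 4 per genotype, was sequenced by the authors after TruSeq library preparation and aligned with Rsubread. The deposited values are raw counts per gene, and per the labels bcl2fastq, featureCounts and mm39 were used. Versions, the annotation and the strand setting of the counting are not given in the sources used here. CPM, counts scaled to a common library total with TMM factors, were computed here.

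Genes passing filterByExpr (minimum count 10, total 15) were normalised by TMM and fitted with the robust quasi-likelihood test of edgeR 4.0.16 (R 4.3.3), with genotype and 2 surrogate variables of sva 3.50.0 as terms. P-values were adjusted by Benjamini-Hochberg over 15679 genes (FDR threshold 0.05). Intervals are 95% intervals on the quasi-likelihood degrees of freedom, and the additive limit was 0.5 log2. P-values measure the spread between embryos, of which several share a litter. Depth was 14407277 to 45665680 counts. The first surrogate variable followed sex.

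The alternatives were no, 1 or sex covariates, DESeq2 1.42.0 (its test or its size factors), limma 3.58.1 (voom), no filter, replicate number or litter as a term, other limits and each embryo left out. The embryos, genes and lists were chosen with earlier results of these data known. Genes were named as the 8 with the largest interaction and the 5 with the smallest FDR per direction among called genes, the 5 additive genes with the smallest FDR per direction of the Kat6a effect and the 5 with the smallest for the transgene, and genes of the study's RNA text. Other called genes, the named list members and ND1 were added after their values were seen. Some genes stay in all counts but are not reported here by name. The test was tried on simulated counts first.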

Additional observations from a re-analysis of the deposited data

Results flagged for a closer look

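Of 184 sets of 4 embryos of 1 genotype checked for a named gene, 9 held 1 embryo far from the other 3. Chance gives about 1 in 20 such sets. Wipi1 read 6.70 CPM in Kat6a-/-Kat6b+/+ replicate 2 and 8.24 to 8.48 CPM in the other 3. Atxn2 read 101 CPM in Kat6a-/-Kat6b+/+ replicate 1 and 109 to 110 CPM in the other 3. Nrip1 read 116 CPM in Kat6a-/-Kat6b+/+ replicate 2 and 124 to 125 CPM in the other 3. Atxn2 read 101 CPM in Kat6a+/+Tg(Kat6b) replicate 1 and 113 to 115 CPM in the other 3. Plxna4 read 14.7 CPM in Kat6a+/+Tg(Kat6b) replicate 1 and 17.0 to 17.2 CPM in the other 3. Kat6a read 138 CPM in Kat6a+/+Tg(Kat6b) replicate 1 and 189 to 196 CPM in the other 3. Tbx3 read 38.4 CPM in Kat6a+/+Tg(Kat6b) replicate 4 and 33.3 to 33.9 CPM in the other 3. Tbx5 read 10.2 CPM in Kat6a+/+Tg(Kat6b) replicate 3 and 19.2 to 20.6 CPM in the other 3. COX3 read 772 CPM in Kat6a-/-Tg(Kat6b) replicate 3 and 648 to 659 CPM in the other 3. Kat6a+/+Tg(Kat6b) replicate 1, in which long genes read low, was the low embryo for Atxn2, Plxna4 and Kat6a among these, and the part of gene length was not tested.

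The effect of Kat6a loss differed between embryos without and with Tg(Kat6b), by the interaction test itself (edgeR FDR under 0.05), in 24 genes. Among them, on the log2 scale, the difference was above 0 in Steap2 (0.76), Igf2 (0.33), Rbpj (0.43), Nrk (0.96), Rbm25 (0.25), Atxn2 (0.32), Adamts9 (0.49), Dcn (1.25), Pls3 (0.26), Col1a2 (0.34), Gxylt1 (0.31), Plxna4 (0.55), Arhgap29 (0.31), Nrp1 (0.32) and Dlx6os1 (1.11). It was below 0 in Wipi1 (-6.46), COX3 (-0.40), H1f5 (-3.39), Gtf2a1 (-0.50), Kbtbd11 (-0.49), Hgsnat (-0.63), Rasl2-9 (-1.20) and Rem2 (-1.10). The fitted value of Wipi1 rests on 11 counts in the 4 Kat6a-/-Tg(Kat6b) embryos together and is no bound.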

How the results depend on the processing

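With no surrogate variable, 1 surrogate variable or sex as the covariate, averaged transgene calls numbered 388, 367 and 399, Kat6a calls without the transgene 95, 96 and 91, and additive genes 611, 602 and 623. The interaction was then called in 17 genes each time, 15, 16 and 16 of them among the 24. Without the filter on low counts the interaction count was 84 (23 of the 24) and the count of Kat6a calls with the transgene 1011, and with DESeq2 these were 138 (23 of the 24) and 882. With litter as a random effect Kat6a calls with the transgene numbered 839. The litter correlation in that fit was -0.067, so it made no allowance for likeness of littermates and is no check on litter. With litter as a fixed block in 12 embryos Kat6a calls without the transgene numbered 18. An additive limit of 0.3 log2 left 520 genes. With 1 embryo left out the counts ran from 16 to 81 for the interaction, 398 to 944 and 440 to 1138 for the averaged Kat6a and transgene effects, 137 to 432 and 165 to 876 for Kat6a loss without and with the transgene, and 560 to 1103 for additive genes. The sign turned for the interaction of Kat6b, not called in any fit, at -0.049 with no surrogate variable, -0.040 with 1, -0.046 with sex, -0.014 without Kat6a-/-Kat6b+/+ replicate 2 and -0.094 without Kat6a+/+Tg(Kat6b) replicate 1 (highest 0.079, without replicate 4 of that genotype), and on untransformed CPM for Hoxb3, at -0.767, and Pou3f3, at -3.58, neither called. The cause of these shifts was not tested.

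The replicate number did not pair embryos (correlation of same-numbered deviations -0.255 to 0.215). With it as a replicate block the interaction was called in 34 genes, 19 of them among the 24, and Kat6a loss with the transgene in 286. List genes with a called interaction numbered 2 with that block, 5 without the filter, 8 with DESeq2, and 1 and 5 without Kat6a+/+Tg(Kat6b) replicates 2 and 3. Over all tested genes the calls in the same order numbered 34 of 15679, 84 of 21894, 138 of 15679, 81 of 15795 and 45 of 15789.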
